A study of Rattus norvegicus with 12 samples.

Results

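Rat corneas labelled SF/HA-HEP-PAM, a silk-based ocular patch, were compared with corneas labelled Alkali-burned, 3 libraries against 3. These 6 libraries are part of a series of 12, which also holds 3 Control libraries and 3 libraries of the SF/HA patch. The comparison covers every gene with at least 1 FPKM in at least 3 of the 12 libraries, 6112 of the 30452 genes listed (20.1%). FPKM is the number of reads per kilobase of gene, scaled to a fixed total of reads assigned to genes, and RPM is the same without the length. The rule used the level over all 12 libraries and not the difference between groups. Adck5 lay just inside it, with a third-highest value of 1.0007 FPKM, and Fbxo28 just outside it, at 0.9999. Of the genes tested, 99 reached 1 FPKM in SF/HA-HEP-PAM libraries only, so these had to be higher there.

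The labels give Rattus norvegicus, cornea and the group name, and no strain, sex, age or time after injury. They leave the abbreviations of the patch names unexplained, do not say whether the patch corneas were burned, and do not say whether the 3 replicates of a group are separate animals. The p-values therefore measure only the spread between these samples, which may be technical. The title of the series says that the patch adheres for a time to the ocular surface, can be detached and removes mediators of inflammation. Values below are listed for replicates 1, 2 and 3 in that order.

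The cornea is covered by a stratified epithelium. Its outermost cells carry membrane mucins and ion transporters and are shed, while the layers beneath are held together by desmosomes, adherens junctions and gap junctions. Below the epithelium lies a stroma of collagen and proteoglycans made by keratocytes. Alkali kills surface cells and is known to be followed by release of cytokines and chemokines, by entry of leukocytes and by conversion of stromal cells into contractile myofibroblasts. At a wound edge, epithelial cells switch on urokinase, matrix metalloproteinases and stress keratins while they spread over the bare surface.

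The libraries held 1432037, 2117399 and 1245606 reads on genes for SF/HA-HEP-PAM and 1173159, 1265298 and 1217277 for Alkali-burned, against 486264 to 1015788 for the other 6. A gene of 1 kb with 0 reads could lie as high as 1.42 to 2.41 FPKM in the SF/HA-HEP-PAM libraries and 2.37 to 2.56 in the burned ones, a limit of 3 reads that covers counting error only. Corneal identity was plain in both groups: Krt12, the keratin of corneal epithelium, stood at 1033, 1878 and 1717 FPKM in the burned and 2254, 2339.6 and 1832 in the SF/HA-HEP-PAM libraries. Summed reads on 20 keratin genes were 15270.0 to 25010.0 RPM after the burn and 30320.0 to 37490.0 under SF/HA-HEP-PAM, and summed reads on 29 keratocyte and stromal genes were 32190.0 to 40230.0 and 17030.0 to 29310.0. In bulk tissue, fewer cells of a type and less RNA per cell cannot be told apart. Several libraries stood apart within their groups. Summed reads on 17 neutrophil markers, nearly all of them from S100a8 and S100a9, which stressed epithelium also makes, were 6749.0, 1317.0 and 1493.0 RPM in the burned libraries, 2184.0, 3275.0 and 19990.0 under SF/HA-HEP-PAM and 17410.0 in SF/HA replicate 2. Summed reads on 10 lens markers were 10.7 to 16.2 RPM after the burn and 37.0 to 47.4 under SF/HA-HEP-PAM, with no read on Lim2, Crygs, Crybb2 and Crybb3. Those on 13 nerve and Schwann cell markers were 1029.0 to 1250.0 and 525.8 to 739. Most of the nerve reads were on Npy (1525 after the burn and 1317 under the patch) and Cryab (1565 and 895). Of the neutrophil markers, Mpo, Ltf, Fpr1, Fpr2 and Retnlg had no read in the 6 libraries.

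Across the comparison, 451 genes were higher (7.38% of those tested) and 227 lower (3.71%) under SF/HA-HEP-PAM than after the burn. The 451 include 43 genes under 1 FPKM in every library of the other 3 groups. These 43 passed the filter through SF/HA-HEP-PAM alone and had to be higher there, and the 227 include 0 such genes. Calls required limma's p, adjusted by Benjamini and Hochberg over all 6112 genes, to be below 0.05 and a log2 difference above 1 or below -1 on the scale of log2(FPKM + 1). This scale understates the change of genes near or under 1 FPKM. Higher genes made up 66.5% of the calls, but 55.1% after quantile normalization, with 385 higher and 314 lower. The median log2 difference of all 6112 genes was 0.04, and moved to -0.08 after quantile normalization. An unadjusted p below 0.05 was found for 35.7% of the 6112 genes. Without the 3 libraries richest in neutrophil markers (replicate 3 of SF/HA-HEP-PAM, replicate 2 of SF/HA and replicate 1 of the burn, left out together after the data were seen), the fit called 344 genes higher and 196 lower. Of the 451 higher genes 302 kept the call, and of the 227 lower genes 142 did. The 3 libraries of one group lay wholly above or below the 3 of the other in 47.5% of all genes tested, so separation of the groups by itself is common here. The counts of calls by gene list are drawn in the bar chart of list members.

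**Figure D1:**
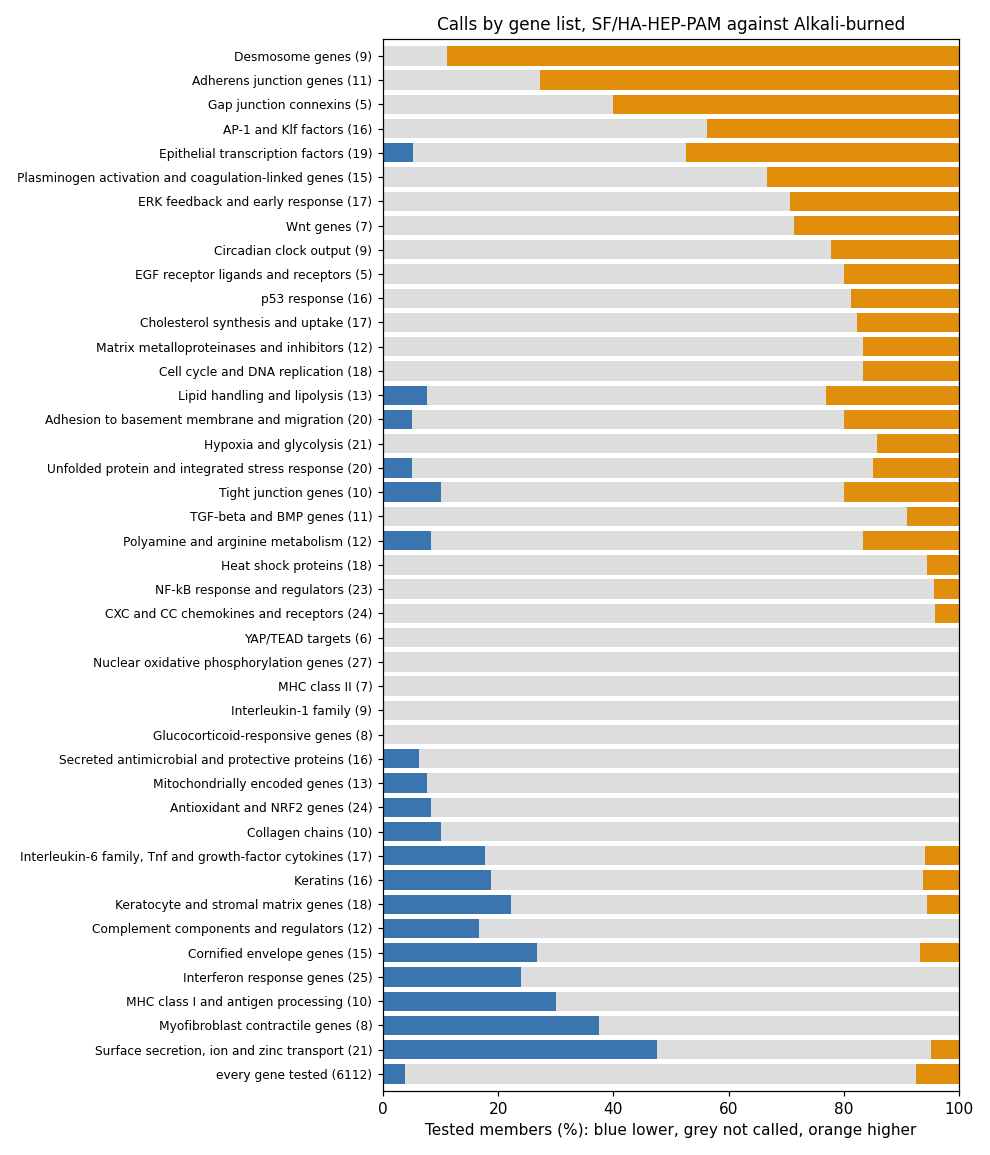
Members of gene lists called higher (orange), called lower (blue) or not called (grey) in SF/HA-HEP-PAM against Alkali-burned corneas; the x axis is the percentage of tested members, and the number tested is given beside each list name. The lowest bar gives the same for all 6112 genes tested, 7.38% higher and 3.71% lower.

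Genes of the shed, secreting outer surface were among those that fell most. Of 21 tested genes of surface secretion, ion and zinc transport, 10 fell, 1 rose and 10 were not called. Their median log2 difference was -0.53, against 0.04 over all genes tested, of which 3.71% fell. Muc20, a membrane mucin (ENSRNOG00000001776, chromosome 11, 67987800 to 68001495, plus strand, in the files' coordinates, build mRatBN7.2 per the submitters' processing notes), stood at 61.9, 86.8 and 84.7 FPKM in the burned libraries and 6.07, 6.79 and 8.91 under SF/HA-HEP-PAM (log2 difference -3.25, SE 0.38, adjusted p = 0.000385). Every burned library lay far above every treated one. Tspan1, a tetraspanin of epithelial membranes, stood at 141, 228 and 218 FPKM after the burn and 16.4, 20.4 and 24.3 under the patch (log2 difference -3.19, SE 0.34, adjusted p = 0.000237). Fxyd4, a regulator of the sodium pump, fell from between 60.5 and 80.7 FPKM to between 5.87 and 11.9. Slc39a4, an importer of zinc, stood at 124, 177 and 162 FPKM against 15.9, 13.9 and 21.2 (log2 difference -3.11, SE 0.21, adjusted p = 1.68e-05). Again no treated library came near a burned one. Duoxa2, which matures a hydrogen peroxide-producing oxidase, fell from between 101 and 128 to between 6.80 and 10.8 FPKM. Its span overlaps Duox2 on the opposite strand, and the counting is not stated to use strand, so reads of the pair may be mixed. Duox2 itself, at between 0.719 and 1.08 FPKM after the burn and between 0 and 0.423 under the patch, was below the level needed for a test.

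Membrane-bound and secreted trypsin-like proteases fell with them. Prss22 stood at 142, 233 and 247 FPKM in the burned and 21.3, 23.6 and 39.7 in the SF/HA-HEP-PAM libraries (log2 difference -2.84, SE 0.42, adjusted p = 0.0014). Prss8, which activates the epithelial sodium channel, went from between 46.5 and 76.2 to between 14.003 and 16.5 FPKM (-2.01), Prss30 from between 25.6 and 42.4 to between 2.56 and 3.70 (-3.21) and Prss32 from between 11.9 and 20.999 to between 1.08 and 1.84 (-2.89). Of the 6 Prss genes tested, 5 fell and Prss23 was not called (0.52), a family chosen after its values were seen. The protease inhibitor Csta of cornified cells fell from between 11.9 and 24.3 to between 1.12 and 3.43 FPKM. Tgm2, a protein-crosslinking enzyme, stood at 63.9, 72.7 and 75.6 FPKM against 6.87, 7.79 and 9.26 (log2 difference -3.005, SE 0.21, adjusted p = 2.41e-05). The water and glycerol channel gene Aqp3, chosen after its values were seen, was the 1 gene of the surface list called higher (1.26). That call ended without any 1 of the 6 compared libraries or SF/HA replicates 1 or 3 (log2 differences of 0.92 to 1.45, adjusted p = 0.0503 to 0.134). Nccrp1 (-2.67), the chloride channel regulator Clca4l (-2.84) and Mab21l4 (-2.94) were also among the 25 deepest falls of genes with a symbol.

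Keratins and cornified envelope genes did not move as a block. Of 16 keratin genes tested, 1 rose, 3 fell and 12 were not called, and of 15 cornified envelope genes 1 rose, 4 fell and 10 were not called. Over all genes tested, 7.38% rose and 3.71% fell. Krt17, a keratin of wounded and stressed epithelium, stood at 195, 104 and 101 FPKM after the burn and 385, 586 and 1022 under SF/HA-HEP-PAM (log2 difference 2.26, SE 0.41, adjusted p = 0.00381). Every treated library lay above every burned one. Krt23 (-1.80) and Krt80 (-1.45), keratins of differentiating epithelium, fell. Krt12 was not called (log2 difference 0.51, adjusted p = 0.27). Klk8, a protease of shedding, rose from between 2.24 and 3.84 to between 12.1 and 29.9 FPKM, a call that ended without SF/HA-HEP-PAM replicate 3 (log2 difference 1.85, adjusted p = 0.0603).

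Cell junctions showed the reverse. Of 9 desmosome genes tested, 8 rose and 1 was not called (median 1.32), of 11 adherens junction genes 8 rose and 3 were not called (median 1.13), and of 5 connexins 3 rose (median 1.65), against 7.38% higher over all genes. Without the 3 libraries richest in neutrophil markers, 4 desmosome genes, 5 adherens junction genes and 3 connexins were called higher, and the plaque gene Jup was not (log2 difference 0.99, adjusted p = 0.0434). Gjb2, a gap junction connexin (ENSRNOG00000008855, chromosome 15, 31260357 to 31278177, minus strand), stood at 6.22, 13.3 and 10.6 FPKM after the burn and 128, 85.3 and 179 under SF/HA-HEP-PAM (log2 difference 3.57, SE 0.55, adjusted p = 0.00177). The treated libraries differed among themselves and all lay far above the burned ones. The span of Gjb2 overlaps a protein-coding gene on the opposite strand and a pseudogene on the same strand, so reads may be mixed. Gjb5, another connexin, rose from between 1.97 and 2.63 to between 7.17 and 12.5 FPKM (1.65). Ctnnb1, the beta-catenin that ties cadherins to the cytoskeleton and carries Wnt signals, stood at 22.8, 17.2 and 15.3 FPKM against 103, 80.3 and 117 (log2 difference 2.38, SE 0.39, adjusted p = 0.00221). Vcl, vinculin of adhesion plaques, stood at 1.06, 0.819 and 0.741 against 7.60, 5.96 and 8.11 FPKM (log2 difference 2.13, SE 0.25, adjusted p = 0.00043). Neither gene's groups came near each other.

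The desmosomal cadherins rose together: Dsc3 from between 1.73 and 2.91 to between 8.73 and 9.83 FPKM (1.75), Dsc2 from between 0.693 and 1.38 to between 4.10 and 5.47 (1.52) and Dsg3 from between 1.18 and 1.93 to between 4.99 and 7.82 (1.45). The plaque proteins Pkp1 (1.63) and Jup (1.32) rose as well. Of the adherens genes, the adaptor Afdn (1.37) and the adhesion molecules Nectin1 (1.18) and Nectin2 (1.08) passed, as did the E-cadherin gene Cdh1 (from between 0.454 and 0.786 to between 2.02 and 2.82 FPKM, 1.04). Of the claudins, Cldn4, a sealing claudin, stood at 224, 254 and 222 FPKM after the burn and 996, 1079.6 and 1073 under the patch (log2 difference 2.17, SE 0.25, adjusted p = 0.00034), and Cldn1 rose from between 1.12 and 2.29 to between 12.7 and 15.9 FPKM (2.46). Of 10 tight junction genes, 2 rose, 1 fell and 7 were not called. Many of these genes have long spans and low FPKM, and long genes took a larger share of reads under SF/HA-HEP-PAM: genes over 50 kb held 12.52%, 10.75% and 12.71% of its reads against 9.10%, 9.37% and 9.06% after the burn. With the trend on gene span removed, Cdh1 (0.79, adjusted p = 0.0124), Nectin1 (0.92, adjusted p = 0.00251), Nectin2 (0.87, adjusted p = 0.00723) and Dsg1 (0.86, adjusted p = 0.0181) were under the log2 threshold of 1. The Cdh1 call also ended without SF/HA-HEP-PAM replicate 3 or Alkali-burned replicate 1 (log2 differences of 0.94 to 0.95, adjusted p = 0.0131 to 0.0147), that of Dsg1 without SF/HA-HEP-PAM replicate 3 or Alkali-burned replicate 1 (log2 differences of 0.85 to 0.92, adjusted p = 0.0251 to 0.031) and that of Nectin2 without SF/HA-HEP-PAM replicate 3 (log2 difference 0.98, adjusted p = 0.00928).

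**Figure D2:**
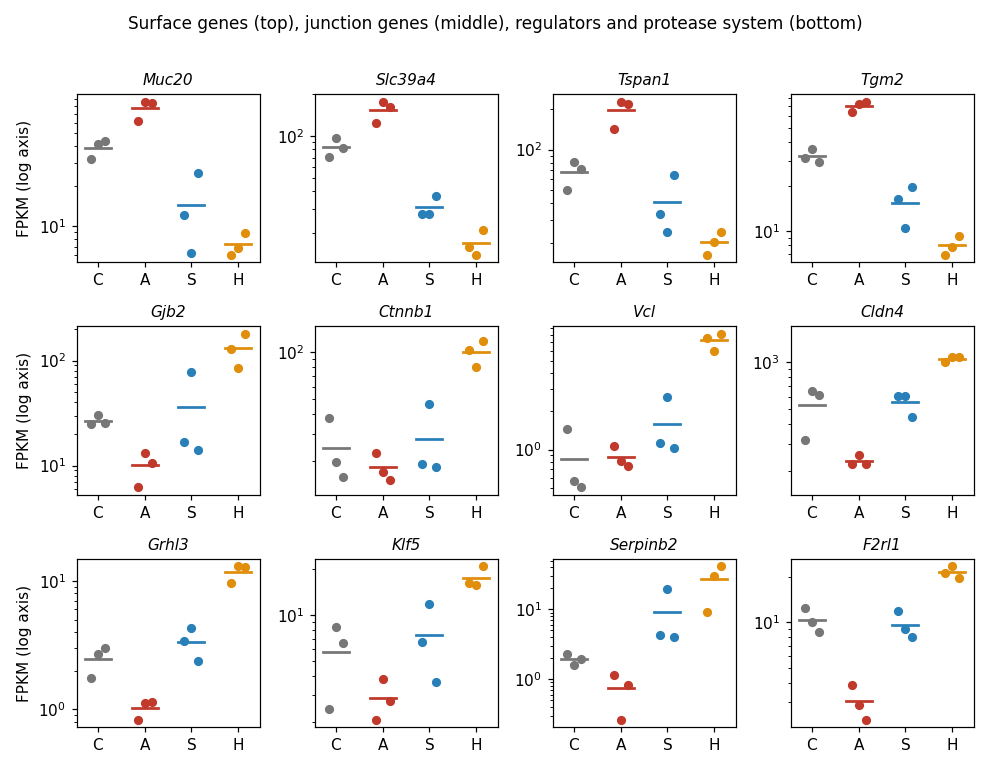
FPKM of 12 genes in each library on a log axis, 1 panel a gene, with 3 points a group (C Control, A Alkali-burned, S SF/HA, H SF/HA-HEP-PAM) and a bar at the group mean. The upper row holds surface genes, with every H point below every A point, and the lower rows hold junction genes, regulators and protease-system genes, with every H point above every A point.

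Some regulators of epithelial differentiation rose. Of 19 epithelial transcription factors tested, 9 rose, 1 fell and 9 were not called (median 0.83, lowest -1.82), against 7.38% higher over all genes. Summed reads on the 29 genes of the list did not rise, at 5373 to 7339 RPM after the burn and 5092 to 6488 under SF/HA-HEP-PAM. Without the 3 libraries richest in neutrophil markers 6 were called higher, and Ovol1 was not called (log2 difference 2.06, adjusted p = 0.0586). Foxq1, a forkhead factor of epithelia, stood at 1.94, 7.50 and 3.74 FPKM after the burn and 39.8, 44.1 and 33.5 under SF/HA-HEP-PAM (log2 difference 3.02, SE 0.37, adjusted p = 0.000452). Its span overlaps a pseudogene of the same name on the opposite strand. Grhl3, a grainyhead factor needed for the skin barrier (ENSRNOG00000029427, chromosome 5, 147774160 to 147806160, minus strand), stood at 0.826, 1.11 and 1.13 FPKM against 9.60, 12.99 and 12.9, and Ovol1, which restrains proliferation in stratified epithelium, at 1.40, 5.06 and 3.41 against 20.6, 20.4 and 21.3 (log2 difference 2.44, SE 0.46, adjusted p = 0.00439). In all 3 genes every treated library lay above every burned one. Pax6, the master regulator of eye and corneal identity, stood at 2.63, 4.77 and 5.15 FPKM against 16.7, 11.8 and 10.8 (log2 difference 1.46, SE 0.27, adjusted p = 0.00421), and in Control at 7.98, 12.1 and 11.1. The treated libraries overlapped the Control libraries and lay above every burned one. Tfap2c rose by 1.24.

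Some Klf and AP-1 factors, which act early in wounded and differentiating epithelium, rose too. Of 16 tested, 7 rose, none fell and 9 were not called (median 0.73), beside 7.38% higher over all genes. Klf5, a factor of basal epithelial cells, stood at 2.08, 3.85 and 2.76 FPKM after the burn and 16.1, 15.7 and 20.8 under SF/HA-HEP-PAM (log2 difference 2.27, SE 0.42, adjusted p = 0.00421). Klf4, needed for the corneal surface, stood at 79.5, 92.5 and 83.2 FPKM against 288, 264 and 252 (log2 difference 1.65, SE 0.17, adjusted p = 0.000169), with a narrow spread among the treated libraries. Klf6 (1.79), Klf10 (1.43), the AP-1 subunit Fosl1 (1.45) and the small Maf factor Mafg (1.71) rose too. Jund, chosen after its values were seen, was the other call of the list (1.84). Fos (0.22) and Jun (0.73), also chosen after their values were seen, were not called.

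Genes of growth factor signalling held a few calls in each list. Of 17 ERK feedback and early response genes, 5 rose, none fell and 12 were not called (median 0.28), beside 7.38% higher over all genes. Etv3, a repressor of the ETS family, stood at 2.66, 3.65 and 2.51 FPKM after the burn and 26.5, 15.6 and 30.1 under SF/HA-HEP-PAM (log2 difference 2.63, SE 0.34, adjusted p = 0.000624). The phosphatases Dusp10 (from between 2.39 and 2.88 to between 11.1 and 13.3 FPKM, 1.85) and Dusp6 (1.58), and Spry2 (1.63), all of which damp MAP kinase signals, rose. Of 5 EGF receptor ligands and receptors tested, Areg, an EGF receptor ligand, rose: it stood at 3.01, 5.58 and 5.89 FPKM after the burn and 16.8, 18.9 and 18.6 under the patch (log2 difference 1.75, SE 0.35, adjusted p = 0.00635). Areg was not called without the 3 libraries richest in neutrophil markers (log2 difference 1.48, adjusted p = 0.059). Jag1, a Notch ligand, stood at 3.13, 2.63 and 1.72 FPKM against 17.4, 11.1 and 16.5 (log2 difference 2.19, SE 0.30, adjusted p = 0.000967) and was the 1 of 4 Notch genes called. Of 7 Wnt genes, the receptor Fzd6 (from between 0.466 and 0.773 to between 3.49 and 8.17 FPKM, 1.98) and the ligand Wnt4 (1.62) rose. Fst, the follistatin that binds activins, rose from between 3.92 and 4.18 to between 17.9 and 25.4 FPKM (2.15), the 1 call among 11 TGF-beta and BMP genes.

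Some genes of the plasminogen system and 2 matrix metalloproteinases rose. Plasminogen activation frees cells from fibrin and matrix at a wound edge: Plau encodes urokinase, Plaur its receptor, Serpinb2 an inhibitor of urokinase, and F2rl1 a receptor that serine proteases cleave. Of 15 genes of this list tested, 5 rose, none fell and 10 were not called (median 0.53). Of 12 metalloproteinases and inhibitors 2 rose and 10 were not called (median -0.03), beside 7.38% higher over all genes. Serpinb2 (ENSRNOG00000002460, chromosome 13, 23541400 to 23550408, plus strand) stood at 1.14, 0.263 and 0.821 FPKM after the burn, from 12, 3 and 9 reads, and at 9.22, 30.3 and 41.3 under SF/HA-HEP-PAM, from 119, 578 and 464 reads (log2 difference 3.81, SE 0.59, adjusted p = 0.00179). The treated libraries spread widely, and without replicate 1, the lowest, the log2 difference was 4.42. Plau stood at 58.4, 26.4 and 28.999 FPKM against 77.5, 117 and 100.2 (log2 difference 1.42, SE 0.29, adjusted p = 0.00678), Plaur at 19.9, 15.96 and 16.5 against 38.3, 50.4 and 61.9 (log2 difference 1.45, SE 0.26, adjusted p = 0.00388) and F2rl1 at 3.88, 2.87 and 2.28 against 21.1, 23.3 and 19.5 (log2 difference 2.49, SE 0.20, adjusted p = 4.68e-05). In each of these the groups were apart, with the closest approach in Plau. Mmp13, a collagenase, stood at 1.66, 1.31 and 0.799 FPKM against 5.57, 18.9 and 14.4 (log2 difference 2.51, SE 0.36, adjusted p = 0.00127), and Mmp10 at 0.323, 0.0999 and 0.208 against 0.971, 1.91 and 1.93 (1.09). The Mmp10 call ended without SF/HA-HEP-PAM replicates 2 or 3 (log2 difference 0.99 in both fits, adjusted p = 0.0393 and 0.042). Serpinb5, an epithelial serpin, had a log2 difference of 1.05 (adjusted p = 0.0264), a call that ended without SF/HA-HEP-PAM replicates 1, 2 or 3 or Alkali-burned replicate 1 (log2 differences of 0.83 to 1.10, adjusted p = 0.0597 to 0.0934). Mmp9, a gelatinase, was not called (-0.66, adjusted p = 0.511).

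A loose pattern for AP-1 sites, TGANTCA with any base at N, was searched near the starts of these genes. A narrower pattern with only C or G at N was not counted. The pattern searched reads the same on both strands. In the 250 bases before the start in RefSeq's table of the GRCr8 build, whose coordinates differ from those of the files, 5 of the 6 genes of the 2 lists that rose and have an entry hold it, and 6 of the 11 that were not called hold it too; the share is 5.41% of the 3916 tested genes with an entry and 6.36% of all 27457 promoters. Among all genes called higher it is 9.52% and among all called lower 11.7%. Stretches of 60 bases, 5′ to 3′ on the gene's own strand, are shown for the 5 genes that rose, with the matching letters in capitals. They let the genes that moved together be compared at the pattern. The base at N is C in Plaur and Mmp13, G in Mmp10, T in Serpinb2 and A in Serpinb5. A match is a description of the letters and not evidence of binding.
Plaur, chr1:89181253-89181312: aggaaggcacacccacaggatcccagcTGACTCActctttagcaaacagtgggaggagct
Serpinb2, chr13:24055805-24055864: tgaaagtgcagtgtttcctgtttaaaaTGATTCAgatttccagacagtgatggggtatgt
Mmp13, chr8:12782736-12782795: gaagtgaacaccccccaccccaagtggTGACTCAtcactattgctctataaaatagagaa
Mmp10, chr8:12974619-12974678: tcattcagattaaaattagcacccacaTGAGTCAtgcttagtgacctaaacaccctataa
Serpinb5, chr13:23500032-23500091: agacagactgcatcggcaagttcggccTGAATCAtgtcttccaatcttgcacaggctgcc
The match ends 54 bases before the start in Mmp10, 59 in Mmp13, 76 in Plaur, 137 in Serpinb5 and 182 in Serpinb2. All 5 genes lie on the plus strand. Serpinb2 and Mmp13 also hold the interferon-stimulated response element, described with the interferon genes, within the 250 bases.

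Some contractile genes of myofibroblasts and some stromal genes fell. Of 8 myofibroblast genes tested, 3 fell and 5 were not called (median -0.69). Of 18 keratocyte and stromal matrix genes 4 fell, 1 rose and 13 were not called (median -0.60). Over all genes tested, 3.71% fell and 7.38% rose. Acta2, the actin of contractile wound cells, stood at 21.9, 12.9 and 11.7 FPKM after the burn and 1.88, 5.48 and 4.44 under SF/HA-HEP-PAM (log2 difference -1.77, SE 0.50, adjusted p = 0.0299), and Myl9, a light chain of the same contractile apparatus, at 15.99, 9.88 and 9.37 against 2.07, 3.91 and 3.01 (log2 difference -1.66, SE 0.37, adjusted p = 0.0105). For both genes the highest treated library lay below the lowest burned one. Tagln, which binds actin in these cells, went from between 21.02 and 40.6 to between 3.07 and 8.58 FPKM (-2.02); its span overlaps Pcsk7 on the opposite strand. Control libraries held between 0.867 and 1.26 FPKM of Acta2. Of the stromal list, C1qtnf5 (-1.42) and the collagen-binding proteoglycan Fmod (-1.24) were among those that fell. Lumican, Lum, stood at 938, 689.7 and 672 FPKM against 416, 495 and 289.7 and passed the adjusted p but not the fold (log2 difference -0.95, SE 0.29, adjusted p = 0.0404). None of 10 collagens rose and 1 fell, Col8a2 (-1.03), and Col1a1 was not called (-0.44, adjusted p = 0.42). All 10 had a log2 difference below 0 (-1.03 to -0.105), and 2 had an unadjusted p below 0.05 in limma's test (20%). Summed reads on the 20 collagen genes did not overlap, at 11450 to 12010 RPM after the burn and 5666 to 10190 under SF/HA-HEP-PAM. The calls of Myl9 and Tagln held whichever single library was left out. Without the 3 libraries richest in neutrophil markers, Myl9 was not called (log2 difference -1.45, adjusted p = 0.0748), 1 of the 8 myofibroblast genes was called lower and none of the 18 stromal genes was called. The Acta2 call ended without SF/HA-HEP-PAM replicates 1 or 3 or Alkali-burned replicates 1, 2 or 3 (log2 differences of -1.93 to -1.42, adjusted p = 0.0552 to 0.102), that of C1qtnf5 without SF/HA-HEP-PAM replicate 3 (log2 difference -1.17, adjusted p = 0.0557), that of Fmod without SF/HA-HEP-PAM replicate 3 or Alkali-burned replicate 1 (log2 differences of -1.10 to -1.08, adjusted p = 0.0695 to 0.0724) and that of Col8a2 without SF/HA-HEP-PAM replicate 3 or Alkali-burned replicate 1 (log2 differences of -0.91 to -0.86, adjusted p = 0.0633 to 0.0692). The summed level of the stromal markers was lower in the same libraries, as given above. Summed reads on 14 markers of blood vessel and lymphatic endothelium were 437.8 to 595 RPM after the burn and 256.9 to 305.2 under SF/HA-HEP-PAM. Neither of the 2 tested was called, and 2 had no read in the 6 libraries. Most of these reads were on Pdpn, with 1405 after the burn and 1102 under the patch. Of the 14 markers, 9 had at most 30 reads in the 6 libraries, so the sum says little of vessels. Summed reads on 10 markers of corneal endothelium, Col8a2 among them, were 570.9 to 722 and 507.7 to 528.3, with 3 of 7 tested called lower. The part of these cell types in the calls was not tested.

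**Figure D3:**
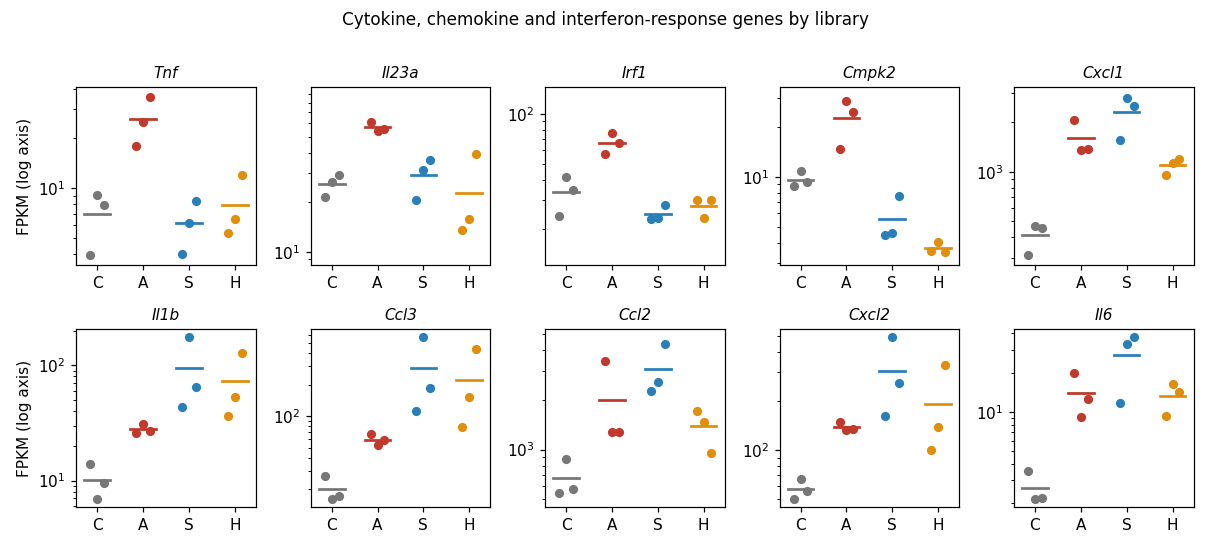
FPKM of 10 cytokine, chemokine and interferon-response genes in each library on a log axis, with 3 points a group (C Control, A Alkali-burned, S SF/HA, H SF/HA-HEP-PAM) and a bar at the group mean. Tnf, Il23a, Irf1, Cmpk2 and Cxcl1 have every H point below every A point, Il1b and Ccl3 have every H point above every A point, and the A and H points of Ccl2, Cxcl2 and Il6 overlap.

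The interleukin, chemokine and NF-kB lists held 0 to 4 calls each, beside the 7.38% higher and 3.71% lower over all genes. Of 9 interleukin-1 family genes tested, none was called by limma, with 1 at an unadjusted p below 0.05 and 3 called by limma's voom on the reads recovered from FPKM. Voom called 1062 of all 6112 genes against the burn. Of 24 chemokines and receptors 1 rose and 23 were not called (median 0.25), and of 23 NF-kB regulators 1 rose, Myd88 (1.23), and 22 were not called (median 0.43). Of these 23, 14 had an unadjusted p below 0.05 (60.9%, against 35.7% of all genes tested) and voom called 3, and summed reads on the 32 genes of the list were 6245 to 7027 RPM after the burn and 9658 to 11650 under SF/HA-HEP-PAM. Without the 3 libraries richest in neutrophil markers Myd88 was not called (log2 difference 1.26, adjusted p = 0.0619). Of 17 genes of the interleukin-6 family, Tnf and growth-factor cytokines, 3 fell, 1 rose and 13 were not called. Tnf (ENSRNOG00000070745, chromosome 20, 3622011 to 3624629, plus strand) stood at 17.9, 25.3 and 35.4 FPKM after the burn and 5.33, 6.49 and 11.95 under SF/HA-HEP-PAM (log2 difference -1.63, SE 0.38, adjusted p = 0.0126). Il23a, a subunit of interleukin-23, stood at 60.9, 54.2 and 55.5 FPKM against 13.5, 15.9 and 39.1 (log2 difference -1.43, SE 0.35, adjusted p = 0.0151). The third treated library was the highest in both genes and still lay below every burned library. Tnf was not called without SF/HA-HEP-PAM replicate 1 or Alkali-burned replicate 3 (log2 differences of -1.42 to -1.39, adjusted p = 0.0511 to 0.0535), nor Il23a without SF/HA-HEP-PAM replicates 1 or 2 (log2 differences of -1.26 to -1.15, adjusted p = 0.0547 to 0.0583). The 1 call of the chemokine list was the scavenger receptor Ackr3 (1.03), and it ended without SF/HA-HEP-PAM replicate 2 or Alkali-burned replicate 3 (log2 differences of 0.87 to 0.94, adjusted p = 0.0253 to 0.0274).

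Other cytokine and chemokine genes among the named mediators did not pass the test. Ccl2, which draws monocytes, stood at 3456, 1280.4 and 1274 FPKM after the burn and 1722, 1472 and 948 under SF/HA-HEP-PAM (log2 difference -0.41, SE 0.41, adjusted p = 0.522). The first burned library was the highest of the burned group, and without it the log2 difference was 0.07. Cxcl1, which draws neutrophils, stood at 2055, 1344 and 1381 FPKM against 948, 1131 and 1199 (log2 difference -0.52, SE 0.25, adjusted p = 0.169), and Cxcl2 at 149, 133 and 135 against 101, 138 and 332 (0.26, adjusted p = 0.719). Il1b stood at 25.9, 31.1 and 26.9 FPKM against 36.5, 52.6 and 129 (log2 difference 1.14, SE 0.53, adjusted p = 0.152) and Ccl3 at 67.6, 52.5 and 58.8 against 79.2, 150.4 and 435 (log2 difference 1.53, SE 0.64, adjusted p = 0.116). In both genes every treated library lay above every burned one. Within the treated group both levels were in the order of the summed neutrophil markers, highest in replicate 3; the part of those markers was not tested. Il6 stood at 20.04, 9.15 and 12.6 against 9.29, 16.5 and 14.3 FPKM (-0.03, adjusted p = 0.974) and Ccl20 at 124, 49.9 and 47.6 against 118, 105 and 95.1 (0.66, adjusted p = 0.259). The prostaglandin synthase Ptgs2 (0.33, adjusted p = 0.624) and the vessel growth factor Vegfa (0.53, adjusted p = 0.3) were not called. Il1b (1.17, adjusted p = 0.0486) and Ccl3 (1.54, adjusted p = 0.0339) passed with voom, and Ccl20 passed without Alkali-burned replicate 1 (log2 difference 1.10, adjusted p = 0.0483).

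Macrophage markers were split. Of 14 tested, 3 fell, 1 rose and 10 were not called (median -0.13), beside 3.71% lower and 7.38% higher over all genes. Of the 14, 7 had a log2 difference above 0. Summed reads on 23 markers were 1424.0 to 1641.0 RPM after the burn and 1146.0 to 1186.0 under SF/HA-HEP-PAM. Cd68, a lysosomal protein, stood at 149, 189 and 189 FPKM against 56.4, 46.4 and 63.95 (log2 difference -1.65, SE 0.22, adjusted p = 0.00073). Arg1, an arginase that epithelium also makes, stood at 13.1, 20.9 and 22.8 against 3.92, 3.49 and 3.67 FPKM, and at 19.2, 22.3 and 17.9 in Control. The burned and Control libraries of Arg1 overlapped, and every treated library lay below both. Over the 3 libraries of each group, Cd68 held 1214 reads after the burn and 487 under the patch, and Arg1 867 and 219. Fcer1g went the other way, with 143 and 566, as did Tyrobp, with 155 and 335. The treated libraries held more reads in total.

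Some interferon-response and class I antigen presentation genes fell, and none rose. Of 25 interferon-response genes tested, 6 fell, none rose and 19 were not called (median -0.57). Of 10 class I genes 3 fell and 7 were not called (median -0.63), beside 3.71% lower over all genes. Irf1, the transcription factor that relays interferon-gamma (ENSRNOG00000008144, chromosome 10, 37916670 to 37924166, plus strand), stood at 56.96, 76.2 and 67.1 FPKM after the burn and 29.9, 23.4 and 30.2 under SF/HA-HEP-PAM (log2 difference -1.23, SE 0.21, adjusted p = 0.00249). Cmpk2, a mitochondrial nucleotide kinase induced by interferon, stood at 14.7, 28.8 and 24.6 FPKM against 3.56, 4.02 and 3.52 (log2 difference -2.28, SE 0.25, adjusted p = 0.000244). The treated libraries lay below all 3 burned libraries in both genes. Irgm, an immunity-related GTPase, stood at 5.88, 14.7 and 12.9 against 3.87, 1.57 and 1.88 FPKM (log2 difference -1.80, SE 0.39, adjusted p = 0.00961), and Zbp1, a sensor of nucleic acids, at 7.70, 13.1 and 12.4 against 3.98, 3.19 and 4.503 (log2 difference -1.28, SE 0.21, adjusted p = 0.00228). Ifi47 (-1.63) and Usp18 (-1.001) also passed, Usp18 only just. Of class I presentation, the immunoproteasome subunit Psmb10 stood at 59.3, 60.5 and 60.3 FPKM against 28.2, 22.7 and 21.8 (log2 difference -1.28, SE 0.28, adjusted p = 0.0101), and the heavy chains RT1-CE1 (-1.17) and RT1-S3 (-1.61) fell; RT1 genes are near-identical copies, and reads may be split among them. None of 7 class II genes was called by limma (median 0.46), with 1 at an unadjusted p below 0.05 and 0 called by voom, and of 12 complement genes 2 fell, the membrane inhibitor Cd59 (-1.41) among them. Psmb10 lost its call without the 3 libraries richest in neutrophil markers (log2 difference -1.22, adjusted p = 0.0667), Usp18 without SF/HA-HEP-PAM replicates 2 or 3 or Alkali-burned replicates 2 or 3 (log2 differences of -0.92 to -0.86, adjusted p = 0.0591 to 0.0725), and RT1-S3 without SF/HA-HEP-PAM replicate 3 or Alkali-burned replicates 2 or 3 (log2 differences of -1.46 to -1.27, adjusted p = 0.0541 to 0.0592).

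The interferon-stimulated response element, searched as GAAA, any 2 bases and GAAA on both strands of the same 250 bases, is found in 3 of the 7 genes of these lists that fell and have an entry, and in 17 of the 24 that were not called, against 3.04% of the 3916 tested genes. The 3 that fell are shown over 60 bases, with the match in capitals, because the element was at least as common among the genes of the lists that did not pass.
Irgm, chr10:33742579-33742638, minus strand: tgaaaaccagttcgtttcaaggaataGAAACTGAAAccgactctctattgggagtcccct
Psmb10, chr19:50743293-50743352, minus strand: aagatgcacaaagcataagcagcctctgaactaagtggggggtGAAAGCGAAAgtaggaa
RT1-S3, chr20:2675391-2675450, plus strand: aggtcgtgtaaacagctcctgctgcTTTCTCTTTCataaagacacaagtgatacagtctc
In RT1-S3 the capitals are the element on the opposite strand.

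Some genes of polyamine synthesis, hypoxia and cholesterol synthesis were among the rises, beside 7.38% higher over all genes. The polyamine and arginine list had a median log2 difference of -0.22. Summed reads on its 17 genes were 2258 to 2355 RPM after the burn and 2044 to 2268 under SF/HA-HEP-PAM. Odc1, the first enzyme of polyamine synthesis, stood at 11.4, 8.30 and 8.24 FPKM after the burn and 45.2, 52.9 and 50.4 under SF/HA-HEP-PAM (log2 difference 2.30, SE 0.18, adjusted p = 5.06e-05), and the next enzyme of the path, Amd1, rose by 1.08; of 12 polyamine and arginine genes 2 rose, 1 fell and 9 were not called. Adm, a vasodilator peptide that hypoxia induces, stood at 24.9, 19.5 and 21.4 FPKM against 208, 222 and 108 (log2 difference 2.91, SE 0.29, adjusted p = 0.000165). The third treated library held least of the treated ones and still lay far above the burned ones. The glucose transporter Slc2a1 (1.33) and Ndrg1 (1.47) were the only other calls among 21 hypoxia and glycolysis genes (median 0.29). Summed reads on the 29 genes of that list overlapped, at 4059 to 5010 RPM after the burn and 4795 to 7160 under SF/HA-HEP-PAM. Of 17 cholesterol genes, 3 rose, none fell and 14 were not called (median 0.77). All 17 had a log2 difference above 0 (0.16 to 1.92), 14 had an unadjusted p below 0.05 (82.4%), and summed reads on the 20 genes of the list were 1091 to 1461 RPM after the burn and 2668 to 3381 under SF/HA-HEP-PAM, with no overlap. Among the 3, Srebf2, the master regulator of sterol synthesis, stood at 1.67, 2.67 and 3.01 FPKM against 13.9, 8.26 and 14.5 (log2 difference 1.92, SE 0.31, adjusted p = 0.00227) and the enzyme Msmo1 rose by 1.36. Msmo1 was not called without the 3 libraries richest in neutrophil markers (log2 difference 1.23, adjusted p = 0.0589).

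The stress, p53, cell cycle and clock lists held 1 to 4 calls each, beside the 7.38% higher and 3.71% lower over all genes. Sesn2, a stress-induced regulator of mTORC1, stood at 5.05, 5.21 and 4.12 FPKM after the burn and 19.96, 15.7 and 20.8 under SF/HA-HEP-PAM (log2 difference 1.77, SE 0.17, adjusted p = 0.000165); of 20 genes of the unfolded protein and integrated stress response, it, Cebpb (1.61) and Dnajb9 (1.18) rose and Chac1 fell (-1.13). Chac1 was not called without SF/HA-HEP-PAM replicates 1 or 3 or Alkali-burned replicate 2 (log2 differences of -1.10 to -0.92, adjusted p = 0.0527 to 0.0609). Mdm2, the p53 antagonist, stood at 4.67, 2.87 and 2.98 FPKM against 20.8, 15.03 and 12.8 (log2 difference 1.93, SE 0.26, adjusted p = 0.00083); of 16 genes of the p53 response, 3 rose, none fell and 13 were not called (median 0.45), and 11 had an unadjusted p below 0.05 (68.8%). Of 18 cell cycle genes 3 rose, with the inhibitor Cdkn2b (1.39) and the replication helicase subunit Mcm4 (1.14) among them, and 15 were not called; Mcm4 lost its call without SF/HA-HEP-PAM replicate 3 (log2 difference 0.98, adjusted p = 0.00933). The clock-output factors Bhlhe40 and Hlf rose: Bhlhe40 stood at 125, 68.004 and 60.1 FPKM against 434, 318 and 341 (log2 difference 2.16, SE 0.43, adjusted p = 0.00618), and Hlf at 0.802, 2.08 and 1.17 against 16.8, 6.67 and 6.82 (log2 difference 2.16, SE 0.32, adjusted p = 0.00147). Of 18 heat shock genes, Dnajb1 rose (1.48), and of 24 antioxidant genes 2 fell, the extracellular superoxide dismutase Sod3 (-1.27) among them. Of 27 nuclear genes of oxidative phosphorylation none was called by limma, with 6 at an unadjusted p below 0.05 and 0 called by voom, and of 13 mitochondrially encoded genes 1 fell. Polg2, the accessory subunit of the mitochondrial DNA polymerase, stood at 2.45, 1.52 and 1.10 FPKM against 36.5, 17.9 and 28.5 (log2 difference 3.39, SE 0.33, adjusted p = 0.000165).

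Non-coding features were common among the rises. They supplied 126 of the 451 higher genes, among them 73 lncRNA genes of 333 tested (21.9%), 16 small nuclear RNA features of 84 (19%) and 16 small nucleolar RNA features of 106 (15.1%), against 325 of 5431 protein-coding genes (5.98%). Of the 227 lower genes 12 were not protein-coding. The 451 include the 43 genes that passed the filter through SF/HA-HEP-PAM alone, and how these divide between classes was not counted. Small nuclear RNA features summed to 64.8, 59.3 and 54.2 RPM in the burned libraries and 335, 178 and 236 under SF/HA-HEP-PAM, and small nucleolar RNA features to 98.0, 72.7 and 76.4 against 311, 196.5 and 211. Reads on lncRNA genes were 0.656%, 0.599% and 0.598% of the total against 1.05%, 0.826% and 0.946%, and those on mitochondrial ribosomal RNA 2.68%, 2.87% and 2.51% against 1.84%, 1.32% and 1.53%. No value of one group fell in the range of the other in these 4 classes. RNA was primed with poly(dT) per the labels' protocols, and most small nuclear and nucleolar RNAs carry no poly(A) tail, so how their reads arose was not tested. U1 and U6 features are near-identical copies among which reads may be split, and many rest on few reads. These shares moved with the group in the same libraries as the rises of long genes; their part in those rises was not tested.

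**Figure D4:**
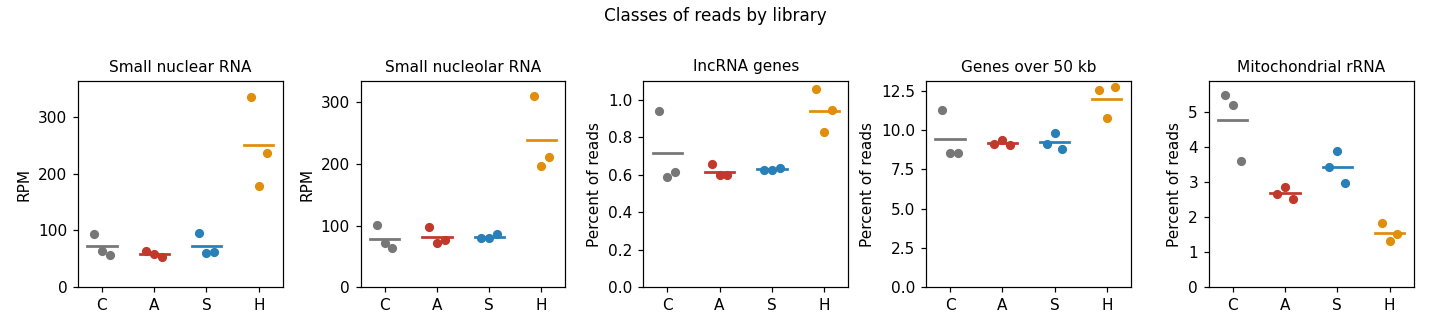
Share of reads by library for small nuclear RNA features, small nucleolar RNA features, lncRNA genes, genes with a span over 50 kb and mitochondrial ribosomal RNA, with 3 points a group (C Control, A Alkali-burned, S SF/HA, H SF/HA-HEP-PAM); y axes are RPM or percent of reads. The H points lie above all A points in the first 4 panels and below them in the last.

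The SF/HA patch carries the same label without HEP-PAM, and the direct comparison with it asks what goes with that part of the label. SF/HA-HEP-PAM was higher in 235 genes (3.84%) and lower in 32 (0.524%) of the 6112. Higher genes made up 88.0% of these calls, but 77.8% after median-of-ratios scaling, 70.8% after quantile normalization and 62.1% with the trend on gene span removed. The 32 became 4 without SF/HA replicate 3, 5 without SF/HA-HEP-PAM replicate 3, 10 without SF/HA-HEP-PAM replicate 1, 18 without SF/HA replicate 1 or Alkali-burned replicate 3, 21 without SF/HA-HEP-PAM replicate 2 or Alkali-burned replicate 2 and 52 without Control replicate 1, and the 235 became 144 to 147 without SF/HA-HEP-PAM replicates 1 or 3 or SF/HA replicate 3. It shares the SF/HA-HEP-PAM libraries with the comparison against the burn, so the values of both are set side by side and no overlap between them is read. Etv3 stood at 2.44, 5.99 and 1.77 FPKM under SF/HA and 26.5, 15.6 and 30.1 under SF/HA-HEP-PAM (log2 difference 2.58, SE 0.34, adjusted p = 0.00255), Jag1 at 2.07, 4.47 and 1.39 against 17.4, 11.1 and 16.5 (log2 difference 2.199, SE 0.30, adjusted p = 0.00289) and Polg2 at 2.01, 0.769 and 0.401 against 36.5, 17.9 and 28.5 (log2 difference 3.82, SE 0.33, adjusted p = 0.000219). In all 3 genes the SF/HA libraries overlapped the burned ones and lay below every SF/HA-HEP-PAM library. Hlf (2.09), Vcl (1.71), Dusp10 (1.55), Sesn2 (1.26), Grhl3 (1.57) and Foxq1 (1.92) were higher than under SF/HA as well. Ctnnb1 stood at 19.3, 46.3 and 18.3 FPKM under SF/HA (log2 difference 1.92, SE 0.39, adjusted p = 0.0161) and Gjb2 at 16.7, 77.7 and 14.1 (log2 difference 2.19, SE 0.55, adjusted p = 0.0369). SF/HA replicate 2 was well above the other 2 in both genes, and the calls ended, for Ctnnb1, without SF/HA-HEP-PAM replicates 1 or 3 or SF/HA replicates 1 or 3 (log2 differences of 1.69 to 1.89, adjusted p = 0.0539 to 0.0681) and, for Gjb2, without SF/HA-HEP-PAM replicates 1, 2 or 3 or Alkali-burned replicates 2 or 3 or SF/HA replicates 1 or 3 or Control replicates 2 or 3 (log2 differences of 1.76 to 2.47, adjusted p = 0.0505 to 0.13).

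The lists described above were counted against SF/HA as well. None of the 9 desmosome genes was called there (Dsc3 0.88, adjusted p = 0.0318, and Pkp1 0.88, adjusted p = 0.0724), while 7 had an unadjusted p below 0.05 in limma's test and 2 were called by voom. Of all 6112 genes, 25.2% had an unadjusted p below 0.05 against SF/HA and 477 were called by voom. Of the adherens genes 3 were higher than under SF/HA (Vcl, Afdn and Ctnnb1), and of the connexins 2, Gjb2 among them. Of the surface genes, Duoxa2 was lower, at 25.7, 15.5 and 31.99 FPKM under SF/HA and 6.80, 10.8 and 8.73 under SF/HA-HEP-PAM (log2 difference -1.34, SE 0.26, adjusted p = 0.0128), while Slc39a4 (-0.82, adjusted p = 0.0369) and Muc20 (-0.73, adjusted p = 0.262) were not called. Slc39a4 was called lower without the 3 libraries richest in neutrophil markers (-1.05, adjusted p = 0.0453), and Muc20 without SF/HA replicate 2 (-1.18, adjusted p = 0.0416). None of the 6 interferon-response genes that fell against the burn differed from SF/HA by the same criteria; Irf1 was at 22.97, 23.3 and 28.1 FPKM under SF/HA (0.16, SE 0.21, adjusted p = 0.673) and Tnf at 4.002, 6.12 and 8.37 (0.29, SE 0.38, adjusted p = 0.666). Cxcl1 was lower under SF/HA-HEP-PAM, at 1559.5, 2792 and 2514 FPKM under SF/HA and 948, 1131 and 1199 here (log2 difference -1.03, SE 0.25, adjusted p = 0.034), and Ccl2 was not called (-1.13, adjusted p = 0.116). The Cxcl1 call ended without SF/HA-HEP-PAM replicates 1, 2 or 3 or Alkali-burned replicate 3 or SF/HA replicates 2 or 3 (log2 differences of -1.10 to -0.86, adjusted p = 0.0509 to 0.119), and that of Duoxa2 without SF/HA-HEP-PAM replicate 1 or SF/HA replicate 3 (log2 differences of -1.19 to -1.12, adjusted p = 0.0521 to 0.0549). Lum, at 814, 786 and 944 FPKM under SF/HA (log2 difference -1.11, SE 0.29, adjusted p = 0.0412), was also among the 32 lower genes. Its call ended without SF/HA-HEP-PAM replicates 1 or 3 or Alkali-burned replicates 2 or 3 or SF/HA replicates 1, 2 or 3 or Control replicate 3 (log2 differences of -1.16 to -0.90, adjusted p = 0.058 to 0.148).

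**Figure D5:**
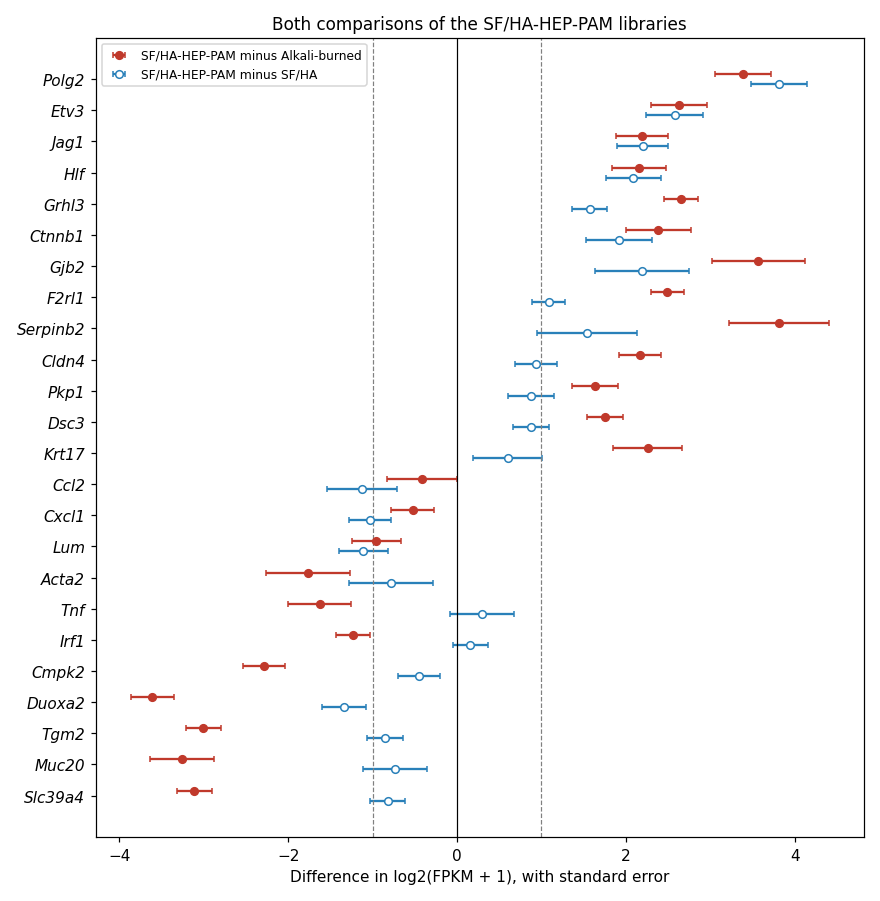
Log2 differences (points) with standard errors (bars) of 24 genes for SF/HA-HEP-PAM minus Alkali-burned (filled) and SF/HA-HEP-PAM minus SF/HA (open), both from the same 12-library fit and sharing the SF/HA-HEP-PAM libraries; dashed lines mark the log2 threshold of 1 and -1. Etv3, Jag1, Polg2 and Hlf lie at similar distances from both groups, while Slc39a4, Muc20, Cmpk2 and Irf1 lie further from the burned group than from the SF/HA group. Their log2 differences from SF/HA are -0.82, -0.73, -0.45 and 0.16.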

How the data were processed

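RNA of 12 rat cornea libraries was primed with poly(dT) and carried barcodes and molecular identifiers, per the labels' protocols; whether identifiers were collapsed is not given in the sources used here. The authors deposited 1 table of FPKM values per gene. Per the submitters' processing notes the tools were bcl2fastq, fastp, STAR, featureCounts and DESeq2 with the build mRatBN7.2, while the series text names HTSeq-count. The deposited FPKM uses the whole genomic span as length, so it understates genes with long introns, and multiplying it back gave whole reads for 100% of values. The 108 lines that name no gene were left out. Spans of other named genes overlap another gene as well, among them Tgm2, Prss8, Jup, Fosl1, Dusp6, Ccl2, Ccl3, Rbm39 and RT1-S3. Reads of such genes may be mixed too.

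Genes were tested with limma 3.58.1 (R 4.3.3) with an intensity trend on log2(FPKM + 1), 4 group means over all 12 libraries, for 6112 genes with Benjamini-Hochberg adjustment. The code was tested on simulated data, and Python 3.11.15 and matplotlib 3.10.9 drew the plots. The genes named were the 25 largest rises and 25 largest falls (called genes that have a symbol, whose libraries do not overlap and whose higher group averages 5 FPKM or more), up to 6 called members of each list with the smallest p, and a set of named mediators and markers whether called or not; some genes that meet this rule are not reported here. The members, lists and tests were chosen with earlier results of these data known. Groups came from the labels. Alternatives varied the pseudocount (0.1, 0.5), filter, scaling, gene span, depth, weights, counts model and libraries included. Intervals for reads cover counting error only.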

Additional observations from a re-analysis of the deposited data

How the results depend on the processing

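Of 107 genes named here as called against the burn, 80 kept the call under every alternative run and 89 in every fit without 1 library, and none changed sign. Fits without 1 library gave 348 to 473 higher and 173 to 247 lower genes against the burn, 144 to 282 higher and 4 to 52 lower against SF/HA, and 133 to 171 calls among the genes of the naming rule, which hold 172. With voom on recovered reads, which tests 8653 genes, 1389 were higher and 522 lower against the burn, 699 and 115 against SF/HA, and 250 instead of 143 list members were called. With at least 5 FPKM in 3 libraries, which tests 2761 genes, 280 were higher against the burn and 145 against SF/HA. The counts against SF/HA moved most. The higher genes numbered 136 after span correction, 123 after span correction with replicate block, 147 among protein-coding genes only and 155 without the 3 libraries richest in neutrophil markers (replicate 3 of SF/HA-HEP-PAM, replicate 2 of SF/HA, replicate 1 of the burn), a choice made after seeing the data. The lower genes numbered 9 with no filter, 53 after median-of-ratios scaling, 71 after quantile normalization, 18 with only the compared libraries, 83 after span correction, 76 after span correction with replicate block, 54 with library weights, 21 thinned to equal depth and 14 without those 3 libraries. Some of these runs hold fewer genes or samples and others hold all of them, and the cause of the moved counts was not tested.

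Some uncalled mediators changed sign. Ccl2 was -0.651 to 0.068 over the fits without 1 library, highest without burned replicate 1, and 0.32 without the 3 libraries. Cxcl2 was -0.23 to 0.62 over those fits, lowest without SF/HA-HEP-PAM replicate 3, and -0.18 without the 3 libraries. Il6 was 0 after span correction with or without the replicate block, 0.19 with library weights and without the 3 libraries, and -0.27 to 0.25 in fits without 1 library, with 0.20 without SF/HA-HEP-PAM replicate 1 and 0.25 without burned replicate 1. Tnf against SF/HA was -0.01 without SF/HA-HEP-PAM replicate 3, and up to 0.51. A replicate block gave 438 higher and 230 lower genes against the burn and 215 and 30 against SF/HA; it ended none of the calls named against the burn and 3 of 14 named against SF/HA (Gjb2, Cxcl1 and Lum). Same-numbered libraries of the burned and SF/HA-HEP-PAM groups correlated at 0.00, -0.05 and 0.03 in their deviations from group means. Those of SF/HA and SF/HA-HEP-PAM correlated at 0.155, -0.0935 and -0.0764, and libraries of these groups with different numbers at -0.104 to 0.165. The labels do not say whether the numbers pair samples, and so few libraries cannot settle it. Depth limits genes near 1 FPKM, where a library holds few reads.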

Other observations

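Genes of splicing regulation stood out among the rises, a group put together after its values were seen and given without a test. Of 36 tested SR-protein splicing factors, their kinases and cyclins, 13 were called higher against the burn and none lower, with a median log2 difference of 0.72 and a range of -0.01 to 2.43, and 10 were called higher against SF/HA. Over all genes tested, 7.38% were higher against the burn and 3.84% against SF/HA. Their summed reads were 3569.0, 3707.0 and 3427.0 RPM in the burned libraries, 3638.0 to 4535.0 under SF/HA, 3589.0 to 4781.0 in Control and 9793.0, 7284.0 and 8304.0 under SF/HA-HEP-PAM. Rbm39, a splicing factor, stood at 4.77, 4.47 and 4.60 FPKM after the burn and 30.6, 29.4 and 27.8 under SF/HA-HEP-PAM (log2 difference 2.43, SE 0.19, adjusted p = 5.06e-05). The kinase Clk1, which phosphorylates SR proteins, stood at 7.66, 5.90 and 5.60 FPKM against 35.5, 14.4 and 26.5 (log2 difference 1.76, SE 0.28, adjusted p = 0.00196), and Srsf3 at 14.8, 15.3 and 13.3 against 40.7, 26.8 and 33.9 (log2 difference 1.16, SE 0.16, adjusted p = 0.000944). In each of the 3 genes every treated library lay above every burned one. FPKM here counts whole spans, so reads in introns kept in the RNA and reads of finished messages cannot be told apart.

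Genes of hair and its keratin-associated proteins were the other group seen afterwards. Of 46 such genes 6 were tested, and 5 were called lower and none higher (median log2 difference -2.35), against 3.71% lower over all genes tested. Their summed reads were 121.0, 155.7 and 110.9 RPM after the burn, 16.1 to 40.1 under SF/HA-HEP-PAM, 18.0 to 63.7 under SF/HA and 44.0 to 65.0 in Control. Among 85 tested features of the small nuclear RNA names U1 to U12, 17 were called higher against the burn and 15 against SF/HA, with a median log2 difference of 1.45 against the burn. The shares over all genes tested were 7.38% and 3.84%.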
